A study of Mus musculus with 8 samples.

Results

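The Hox genes described here are the protein-coding genes of the deposited table whose symbol is Hoxa, Hoxb, Hoxc or Hoxd followed by a number, 39 of 34866 genes. They lie in 4 clusters on GRCm38, with 11 genes in Hoxa (chr6:52155590-52260880, minus strand), 10 in Hoxb (chr11:96194316-96368256, plus strand), 9 in Hoxc (chr15:102921103-103036852, plus strand) and 9 in Hoxd (chr2:74668310-74765142, plus strand). RNA of embryonic brain was sequenced from 8 mouse embryos of a line that models hypoplastic left heart syndrome, a defect of the left side of the heart. The 3 mutants were homozygous for mutant alleles of both Sap130, a subunit of a histone deacetylase repressor complex, and Pcdha9, a neuronal protocadherin, and comprised mutant 260-1 at E13.5 and mutants 195-3 and 303-2 at E14.5. The 5 controls carried 1 mutant allele of each gene, and comprised controls 260-2 and 260-3 at E13.5 and controls 195-2, 195-6 and 303-3 at E14.5. All groups therefore carried both mutations in at least 1 copy, and wild-type embryos are not part of the comparison. The labels give brain as the tissue and do not state the caudal limit of what was taken. The number in the middle of a name (260, 195 or 303) is part of the sample title, and its meaning is not defined in the labels. The 260 samples are the E13.5 samples.

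Hox genes encode homeodomain transcription factors that assign position along the body axis. In the neural tube, genes of low paralogue number reach rostral limits at boundaries of the hindbrain segments, the rhombomeres, while genes of successively higher number start further back, in the caudal hindbrain and then the spinal cord. The forebrain, the midbrain and rhombomere 1 normally lack Hox RNA. Retinoic acid and Cdx factors act upstream of the clusters, Pbx and Meis proteins are DNA-binding partners of Hox proteins, and Polycomb and Trithorax proteins maintain the silent and the active state of the clusters.

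The homeobox is also the stretch in which Hox coding sequences are most alike, which bears on how well reads can be told apart between members. Over all 741 pairs of Hox coding sequences, 5 pairs shared an identical run of at least 40 bases, and a read that lies inside such a run fits both members. Hoxa6 and Hoxb4 shared the longest run, of 52 bases, the pairs of Hoxa6 with Hoxa7, Hoxa7 with Hoxb4 and Hoxb3 with Hoxd3 shared 47 bases each, and Hoxb9 and Hoxd9 shared 40. The deposited values of Hoxb9, Hoxc9, Hoxd4 and Hoxd9 were fractional in all libraries. Those of Hoxb4, Hoxb6, Hoxc8 and Hoxd11 were whole in 12.5% of libraries, and those of Hoxa2, Hoxa3, Hoxb3 and Hoxd3 in 25%. These values are therefore not plain read counts, and how the fractions arose is not known. The library kit does not mark strand, and reads of antisense RNA inside the clusters cannot be told apart from those of the Hox genes they overlap, as Hoxaas3 does from Hoxa3 to Hoxa7. The annotated span of Hoxd4 overlaps that of Hoxd3, so these 2 values also depend on how shared reads were split. The same may hold for Hoxa3, whose span covers Hoxa4, Hoxa5 and Hoxa6. It may also hold for Hoxc5, whose span covers Hoxc6, Hoxc8 and Hoxc9 and overlaps Hoxc10. Overlap of their exons was not examined.

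Library totals ranged from 36438282 to 47838448 counts. Sap130 stood at 35.9, 34.6 and 32.6 CPM (counts scaled to library size, with TMM factors) in mutants 260-1, 195-3 and 303-2, and at 46.8 to 52.1 CPM in the controls, with no overlap (log2 change -0.54, adjusted p = 0.00291, edgeR quasi-likelihood test with Benjamini-Hochberg adjustment). Pcdha9 stood at 9.47, 18.2 and 12.01 CPM in the same mutants and at 14.9 to 24.6 CPM in the controls (log2 change -0.66, adjusted p = 0.0212 by the same test). Libraries 260-1 (mutant) and 195-6 (control) stand apart from the other 6 in Hox level. The counts of Hox genes called for genotype and for stage are given below with and without them.

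Hox RNA was abundant in 6 brains and nearly absent from 2, 1 of each genotype and 1 of each stage. The summed level of the 39 genes was 2.19, 472.2 and 347.1 CPM in mutants 260-1, 195-3 and 303-2, and 299.9, 305.2, 210.6, 4.51 and 244.3 CPM in controls 260-2, 260-3, 195-2, 195-6 and 303-3. Mutants 195-3 and 303-2 lay above every control, and mutant 260-1 lay below every control, so the genotypes did not separate as groups. Scaling by library total or by upper quartile left these sums between 2.11 and 472.6 CPM with the same 2 libraries lowest. In bulk tissue, fewer cells that express a gene and less RNA per cell cannot be told apart.

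The low level of these 2 libraries held in all 4 clusters. The Hoxa genes summed to 0.836, 130.9 and 87.7 CPM in the mutants, in the order given above, and to 74.5, 81.8, 61.8, 1.29 and 69.3 CPM in the controls. The Hoxb genes, the most abundant cluster in the 6 other libraries, summed to 0.339, 251.3 and 196.0 CPM in the mutants and to 165.0, 160.5, 105.1, 1.60 and 124.8 CPM in the controls. Mutant 260-1 and control 195-6 held the lowest sum of their genotype in either cluster. The Hoxc genes summed to 0.339, 44.3 and 31.2 CPM in the mutants and to 33.1, 30.3, 20.04, 0.591 and 24.7 CPM in the controls. The Hoxd genes summed to 0.678, 45.6 and 32.2 CPM in the mutants and to 27.2, 32.7, 23.7, 1.03 and 25.4 CPM in the controls. The order of the libraries was much the same in every cluster, with mutant 195-3 at the top of each.

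**Figure D1:**
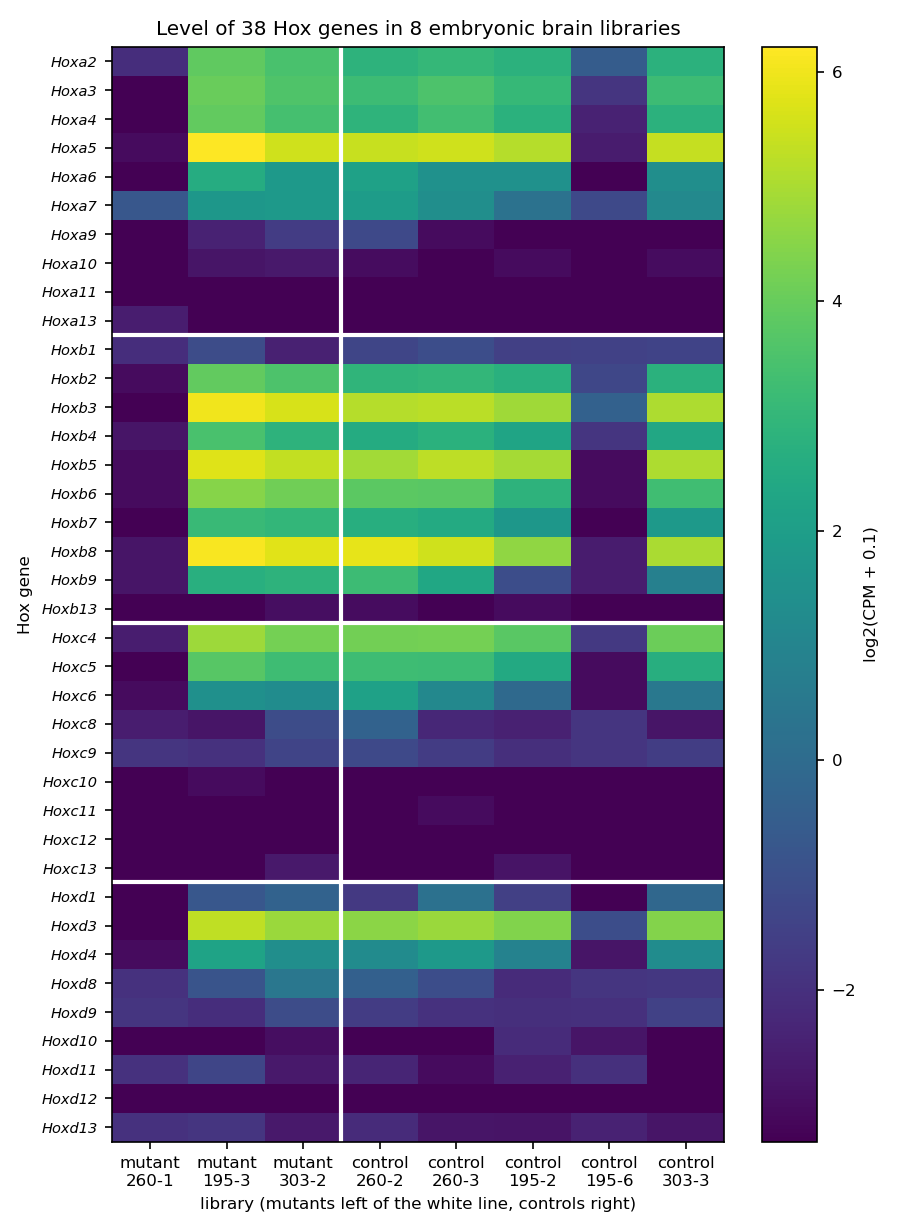
Level of 38 of the 39 Hox genes (rows, by cluster and paralogue number) in each library (columns, mutants left of controls), as log2(CPM + 0.1). The columns of mutant 260-1 and control 195-6 are dark in all 4 clusters, while most genes from 2 to 8 are bright in the other 6 libraries and genes 10 to 13 are dark in all 8.

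Compared per kilobase of exon (RPKM), the highest Hox levels were those of Hoxa and Hoxb genes numbered 3 to 8. Hoxc4 and Hoxd3, near the low-numbered end of their clusters, were the highest Hoxc and Hoxd genes. Over the 6 Hox-rich libraries, Hoxa5 averaged 25.4 ± 7.24, Hoxb8 18.0 ± 6.44, Hoxb5 13.4 ± 3.19 and Hoxb3 9.74 ± 3.11 RPKM (SD, n = 6 libraries of both genotypes). The SDs of neighbours in this order overlap, but the genes were measured in the same libraries. Within each of these 6 libraries Hoxa5 stood above Hoxb8, and Hoxb5 above Hoxb3. The margin of Hoxa5 over Hoxb8 was narrow in control 260-2, at 22.4 against 21.9 RPKM. Hoxc4, the first gene of the Hoxc cluster, averaged 7.39 ± 1.90 RPKM, Hoxd3 6.39 ± 1.62 RPKM and Hoxa2, which patterns the second rhombomere, 5.16 ± 1.79 RPKM on the same scale. The paralogue 1 genes, whose segmental phase lies earlier in development, were low, with Hoxd1 at 0.315 ± 0.180 and Hoxb1 at 0.119 ± 0.0454 RPKM. In the Hoxa cluster levels were low again towards the high numbers, at 0.945 ± 0.346 RPKM for Hoxa7 and 0.0199 ± 0.0244 RPKM for Hoxa9. The only gene numbered above 8 in any cluster that averaged over 1 RPKM was Hoxb9 (1.93 ± 1.31 RPKM). Hoxa11, Hoxc12 and Hoxd12 had 0 counts in all 8 libraries, which allows at most 3 counts each, or 0.0620 to 0.0852 CPM depending on the library, for counting error alone. Hoxa10, Hoxa13, Hoxb13, Hoxc10, Hoxc11, Hoxc13 and Hoxd10 summed to 7, 3, 3, 1, 1, 4 and 9 counts over all 8 libraries, and Hoxd11 and Hoxd13 to 38 and 32 counts.

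**Figure D2:**
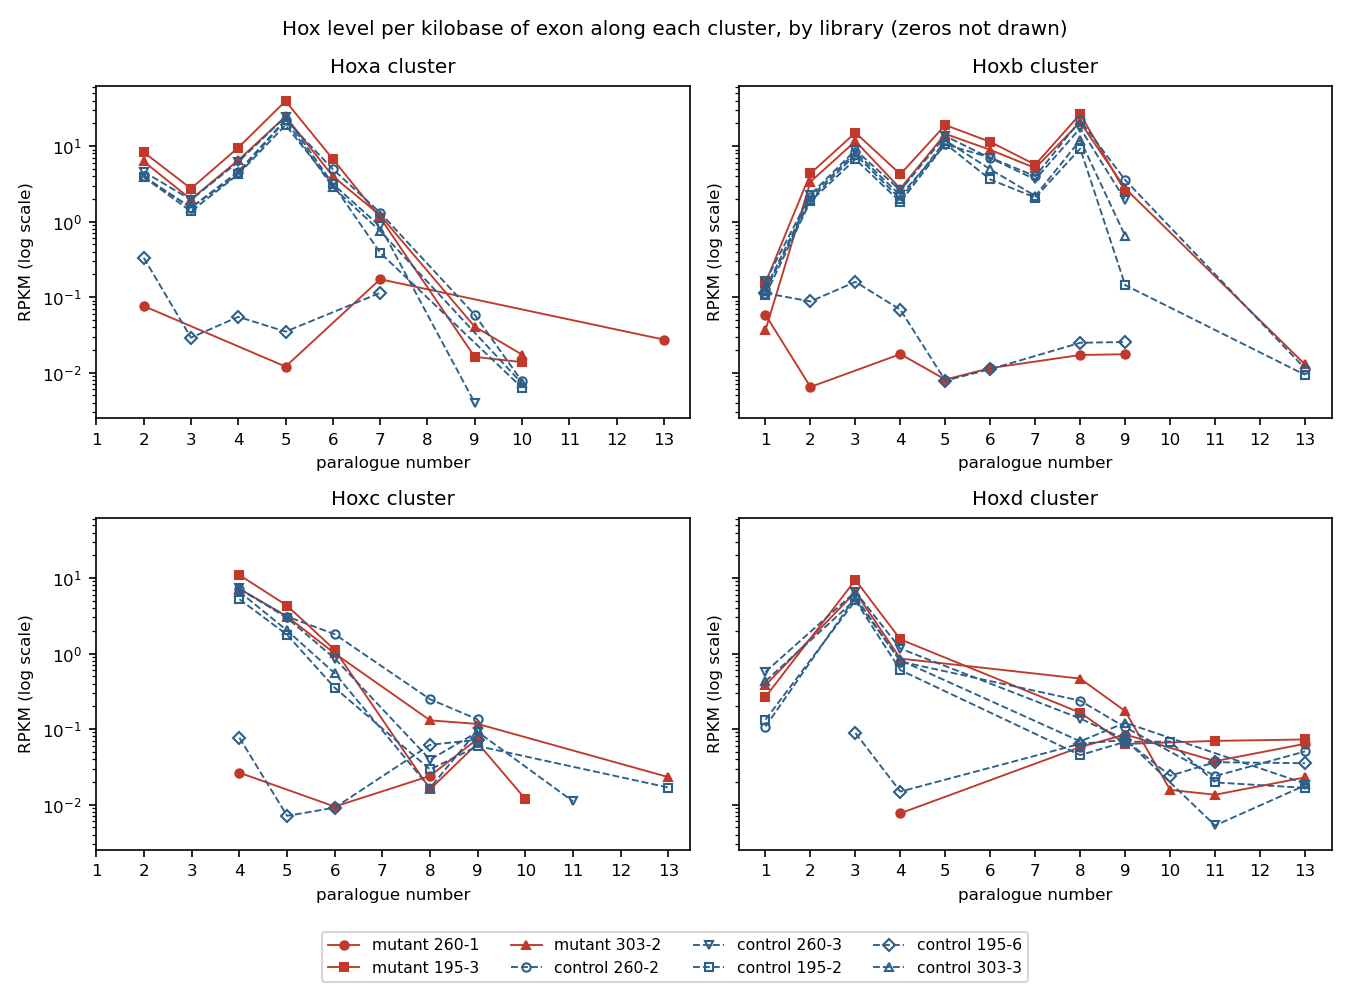
RPKM (log scale, zeros not drawn) against paralogue number for 38 Hox genes in their clusters, 1 line per library, mutants as red filled symbols with solid lines and controls as blue open symbols with dashed lines. In Hoxa and Hoxb the 6 Hox-rich libraries run together from gene 2 to gene 6 and fan out at Hoxb9, where control 195-2 lies far below the rest of them, and the lines of mutant 260-1 and control 195-6 lie far below them from gene 2 to gene 6.

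The genes that lead each cluster show the 2 levels directly. Hoxb3 (GRCm38 chr11:96323326-96347930), expressed from the caudal hindbrain segments backwards, stood at 0, 64.2 and 49.5 CPM in the mutants, and at 35.3, 37.8, 28.5, 0.678 and 33.0 CPM in the controls. Mutant 260-1 had no Hoxb3 count, at least 521-fold lower than the lowest of the other 260 libraries when set at a floor of 3 counts per library, and control 195-6 had 31 counts, 42.1-fold under the lowest of the other 195 libraries. Hoxa5 (chr6:52201754-52204587), expressed in caudal hindbrain and cervical cord, stood at 0.0226, 74.2 and 46.4 CPM in the mutants, and at 42.1, 46.1, 35.7, 0.0656 and 41.3 CPM in the controls. Hoxb8 (chr11:96281905-96285315), a gene of spinal cord and the most caudal hindbrain, stood at 0.0452, 70.0 and 54.5 CPM in the mutants, and at 57.8, 45.6, 24.4, 0.0656 and 31.8 CPM in the controls. For Hoxb3 and Hoxa5 mutants 195-3 and 303-2 lay above all controls, while for Hoxb8 mutant 303-2 lay between controls 260-2 and 260-3.

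In the other clusters the same libraries were low. Hoxc4 (chr15:103018934-103036852) stood at 0.0678, 28.1 and 18.5 CPM in the mutants, and at 18.2, 18.7, 13.45, 0.197 and 16.9 CPM in the controls. Hoxd3 (chr2:74711927-74748442) stood at 0, 39.5 and 27.2 CPM in the mutants, and at 23.6, 27.6, 21.1, 0.372 and 21.8 CPM in the controls. Hoxa4 (chr6:52189671-52191753) stood at 0, 15.3 and 10.4 CPM in the mutants, and at 7.35, 9.87, 6.78, 0.0875 and 6.85 CPM in the controls. For Hoxd3 and Hoxa4, the 0 of mutant 260-1 is at least 348-fold and 108-fold lower than the lowest other 260 library at the same floor. Of the 39 genes, 30 had at most 3 counts in mutant 260-1 and 23 in control 195-6, and 24 had more than 3 counts in every one of the other 6 libraries.

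What little Hox RNA remained was made up differently from that of the other brains, and differently in the 2 libraries. In control 195-6, genes of paralogue number 1 to 4 made up 65.0% of the Hox counts (Wilson 95% interval 58.3% to 71.2%), led by Hoxb3 with 31, Hoxa2 with 27 and Hoxd3 with 17 counts. In the 6 Hox-rich libraries this share was 44.6% and 43.6% in mutants 195-3 and 303-2, and 39%, 43.9%, 46.9% and 45.2% in controls 260-2, 260-3, 195-2 and 303-3. The paralogue 2 genes alone, Hoxa2 and Hoxb2, held 19.9% (15.0% to 25.9%) in control 195-6, against 4.81% to 6.59% in the 6, while the paralogue 5 genes held 2.43% (1.04% to 5.56%), against 27.0% to 33.8%. Genes 9 to 13 held 15.0% (10.8% to 20.6%) in control 195-6, against 0.471% to 3.44% in the 6. Most of the remaining RNA of control 195-6 thus came from genes of low paralogue number, those with rostral limits. In mutant 260-1, genes 1 to 4 made up 24.7% (17.2% to 34.2%) and genes 9 to 13 made up 36.1% (27.2% to 46.0%) of a small total, with Hoxa7 at 22 counts, Hoxc9 and Hoxd9 at 8 each and Hoxd8, Hoxd11 and Hoxd13 at 7 each. The larger shares of genes 9 to 13 were not higher levels. These genes summed to 0.791 CPM in mutant 260-1 and 0.678 CPM in control 195-6, below the 0.991 to 10.3 CPM of the 6 Hox-rich libraries. Hoxa7 stood at 0.497 CPM in mutant 260-1 while its neighbour Hoxa6, which shares a run of 47 bases with it, had 0 counts. These intervals cover counting error only, since reads without molecular identifiers are not independent molecules.

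**Figure D3:**
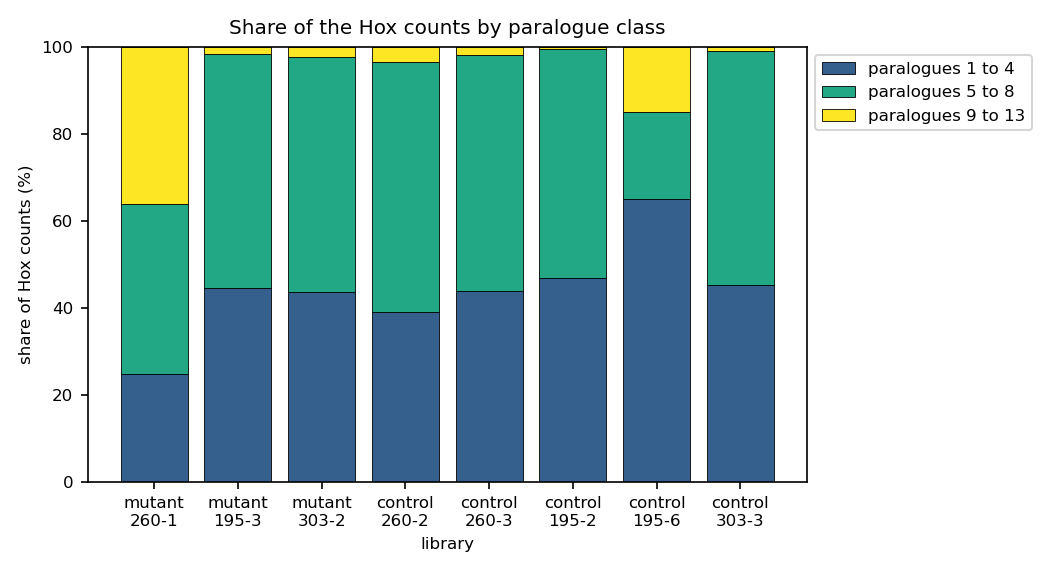
Share of all Hox counts (percent) by paralogue class in each library, mutants left of controls. The 6 Hox-rich libraries are alike, mutant 260-1 has an enlarged share of genes 9 to 13 (36.1%), and control 195-6 has enlarged shares of genes 1 to 4 (65.0%) and 9 to 13 (15.0%).

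Of the 25 tested Hox genes, 21 were lower in both Hox-poor libraries than in all other 6, and Hoxc9, Hoxd9, Hoxb1 and Hoxd8 were not. Hoxd8 stood at 0.158 CPM in mutant 260-1 and 0.175 CPM in control 195-6, inside the 0.124 to 1.28 CPM of the other 6. Hoxc9 stood at 0.181, 0.158 and 0.284 CPM in the mutants, and at 0.326, 0.222, 0.145, 0.175 and 0.235 CPM in the controls. Hoxd9 stood at 0.181, 0.135 and 0.369 CPM in the mutants, and at 0.226, 0.156, 0.145, 0.153 and 0.259 CPM in the controls. Mutant 260-1 and control 195-6 lie inside the range of the other libraries for both genes, each on 6 to 13 counts per library and on fractional deposited values. Hoxb1, the marker of the fourth rhombomere, stood at 0.136, 0.361 and 0.0852 CPM in the mutants and at 0.248 to 0.378 CPM in the controls, with control 195-6 at 0.263 CPM among them.

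Few other genes were missing from these 2 brains to this extent. On the log2 CPM scale (prior count 2), 25 of 17357 tested genes (0.144%) were at least 3 units lower both in mutant 260-1 than in the mean of controls 260-2 and 260-3 and in control 195-6 than in the mean of mutant 195-3 and control 195-2, and 19 of those 25 were Hox genes, out of 25 Hox genes tested. Since the 2 libraries were picked for their low Hox level, these counts describe the libraries and carry no test. The non-Hox genes most like the Hox genes by the larger of these 2 differences were 5730596B20Rik, which lies inside the annotated span of Hoxa3, Gm28230, which overlaps Hoxd3 and Hoxd4, an unnamed gene, and then Lhx3, Nkx6-3, Lbx1, Lamp5, Slc6a5 and Pax2. Lbx1, a factor of dorsal hindbrain and cord interneurons, stood at 0.362, 17.1 and 13.54 CPM in the mutants and at 8.65, 9.85, 8.14, 0.985 and 9.70 CPM in the controls. Among genes of the territory just rostral to the Hox domain, the 2 libraries differed from the rest in some and not in others. Pax2, which acts at the isthmus and also in spinal and hindbrain interneurons, stood at 1.27, 29.1 and 23.1 CPM in the mutants and at 16.7, 18.9, 16.8, 3.28 and 17.5 CPM in the controls, and Pax8 was likewise low in both libraries, at 1.88 CPM in mutant 260-1 and 0.897 CPM in control 195-6. En2, a midbrain and rhombomere 1 gene, was not, and stood at 54.5, 59.99 and 59.3 CPM in the mutants and at 34.4, 31.4, 26.8, 34.2 and 26.2 CPM in the controls.

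Over whole marker lists, these 2 libraries were lowest of their genotype for hindbrain and cord, and also for mesenchyme, peripheral neurons and upstream patterning genes. For the forebrain list, whose values are given further below, both were highest of their genotype. The 17 genes for rhombomere 1, isthmus and cerebellum summed to 815.0, 1066 and 899.6 CPM in the mutants and to 777.3, 737.6, 666.8, 663.1 and 704.8 CPM in the controls, so that mutant 260-1 and control 195-6 lay under the others of their genotype by a narrow margin. The 20 genes for caudal hindbrain neurons summed to 118.5, 258.7 and 222.0 CPM in the mutants and to 155.2, 165.1, 137.6, 93.0 and 142.9 CPM in the controls, with the 2 Hox-poor libraries further below the rest of their genotype. The 17 genes for spinal cord and motor neurons summed to 117.4, 165.4 and 126.8 CPM in the mutants and to 139.3, 174.2, 135.8, 95.9 and 150.3 CPM in the controls. Hox genes are also active outside the brain, and the 16 genes for mesenchyme, cartilage and skeletal muscle summed to 415.4, 524.0 and 608.9 CPM in the mutants and to 436.1, 537.7, 422.4, 356.5 and 465.3 CPM in the controls. The 12 genes for peripheral sensory neurons and neural crest glia summed to 141.7, 143.9 and 144.1 CPM in the mutants and to 120.1, 148.2, 104.3, 100.8 and 124.9 CPM in the controls. The 16 upstream patterning genes summed to 168.4, 255.4 and 229.7 CPM in the mutants and to 192.9, 214.8, 190.8, 159.1 and 193.1 CPM in the controls. Motor neuron genes of the cord list did not move together. Isl1, also a sensory neuron gene, stood at 50.7, 34.6 and 20.8 CPM in the mutants and at 41.7, 39.1, 33.9, 39.7 and 34.2 CPM in the controls. Slc18a3, the vesicular acetylcholine transporter, stood at 0.362, 3.97 and 2.64 CPM in the mutants and at 3.59, 4.89, 4.09, 1.29 and 3.60 CPM in the controls. Lhx3, a motor neuron and interneuron factor, stood at 0.113, 2.51 and 1.62 CPM in the mutants and at 1.38, 3.25, 1.16, 0.0219 and 1.34 CPM in the controls. Slc18a3 and Lhx3 were thus low in both Hox-poor libraries and Isl1 was not, while Mnx1 was at 0.0226 to 0.227 CPM in the mutants and 0 to 0.251 CPM in the controls. The part of these regional levels in the low Hox values was not tested.

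Mutants and controls were first compared over all 8 libraries, the question the design poses. No Hox gene was called: the edgeR quasi-likelihood test, with stage in the model and Benjamini-Hochberg adjustment over 17357 genes, called 0 of the 25 that passed the filter on low counts, against 20.6% of all tested genes (10.9% higher and 9.74% lower). At an unadjusted p under 0.05 the count was also 0 of 25, against 36.7% of all genes, and DESeq2 called 0. The median log2 change of the 25 genes was 0.29, against -0.00052 for all tested genes, and 22 of the 25 were positive, but the standard errors ran from 0.37 to 2.17, against a median of 0.11 for all tested genes, and the adjusted p from 0.326 to 1. For Hoxb8 the change was 0.54 (SE 2.15, 95% interval -4.89 to 5.97, adjusted p = 0.884). Single libraries set the sign: the median was 1.45 without mutant 260-1, -0.49 without control 195-6 and -0.32 without mutant 195-3. Without mutant 260-1 the test called Hoxd8 higher, and without mutant 195-3 it called Hoxb1 lower, each 1 gene.

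With both Hox-poor libraries left out, a number of Hox genes were called higher in the mutants. These libraries were left out for their Hox level, the measure then tested, so the p-values below hold only given that choice, and the median standard error of the tested Hox genes was 0.22, against 1.7 with all 8 libraries. The remaining E13.5 samples are both controls, so the difference is that of mutants 195-3 and 303-2 over controls 195-2 and 303-3, all at E14.5, and the E13.5 controls add only to the estimate of spread. By the same edgeR test, 12 of 26 tested Hox genes were called higher and 0 lower, against 5.64% of all 17454 tested genes higher and 5.65% lower. The 12 were Hoxa2, Hoxa3, Hoxa4, Hoxb2, Hoxb3, Hoxb4, Hoxb6, Hoxb7, Hoxb8, Hoxc5, Hoxd3 and Hoxd8. The median log2 change over the 26 genes was 0.90, against -0.00048 over all tested genes, 25 of 26 were positive, and 21 had an unadjusted p under 0.05, against 30% of all genes. The count depended on single controls: it was 0 without control 195-2, 4 without control 303-3 and 6 without either control 260-2 or control 260-3. It was 6 with the E14.5 samples alone. Calls fell over the whole table too, from 984 genes higher to 47, 63, 458, 400 and 473 in these fits, in the order given. The median Hox log2 change in them stayed at 0.854, 0.995, 0.899, 0.895 and 0.894.

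The 6 genes of smallest p came from the Hoxb cluster and Hoxc5. Hoxb7 (chr11:96286623-96290162) stood at 8.78 and 7.92 CPM in mutants 195-3 and 303-2, and at 3.22 and 3.39 CPM in controls 195-2 and 303-3, but also at 6.17 and 5.60 CPM in the E13.5 controls 260-2 and 260-3. Its log2 change was 1.34 (SE 0.17, adjusted p = 0.0032, edgeR quasi-likelihood test). Mutant 260-1 and control 195-6 had no Hoxb7 count. Hoxb6 stood at 22.4 and 17.5 CPM in mutants 195-3 and 303-2, at 7.11 and 9.70 CPM in controls 195-2 and 303-3 and at 13.9 and 13.6 CPM in controls 260-2 and 260-3, a log2 change of 1.25 (SE 0.18, adjusted p = 0.00562, same test). Hoxb2 stood at 15.2 and 11.8 CPM in these mutants, at 6.49 and 6.78 CPM in the E14.5 controls and at 7.37 and 7.94 CPM in the E13.5 controls, a change of 1.02 (SE 0.17, adjusted p = 0.00796). Neither mutant overlapped any of the 4 controls for these 3 genes. For Hoxb3, Hoxb8 and Hoxc5, the edgeR log2 changes were 0.89 (SE 0.14, adjusted p = 0.0074), 1.15 (SE 0.18, adjusted p = 0.00949) and 0.97 (SE 0.19, adjusted p = 0.0146). Hoxc5 stood at 13.3 and 9.54 CPM in the mutants, which control 260-2 (9.55 CPM) overlapped.

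The change was of like size across clusters, with medians of 0.90 for 7 Hoxa, 1.02 for 9 Hoxb, 0.97 for 5 Hoxc and 0.64 for 5 Hoxd genes. Genes 1 to 4 had a median of 0.82 with 7 of 12 called, and genes 5 to 8 one of 1.15 with 5 of 11 called, while none of the 3 tested genes of number 9 to 13 was called. Hoxa5, the most abundant member, was not called, with a change of 0.65 (SE 0.21, adjusted p = 0.0924, edgeR), nor was Hoxc4, with 0.62 (SE 0.20, adjusted p = 0.0766). The filter on low counts kept all 12 genes numbered 1 to 4, 11 of 11 numbered 5 to 8 and 3 of 16 numbered 9 to 13. Taken number by number, mutant 195-3 exceeded control 195-2 in 23 of the 24 Hox genes with more than 3 counts in each of the 6 libraries, by a median of 2.30-fold, and mutant 303-2 exceeded control 303-3 in 23 of 24, by a median of 1.51-fold. Controls differed too, since control 303-3 exceeded control 195-2 in 22 of 24 genes, by a median of 1.15-fold.

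**Figure D4:**
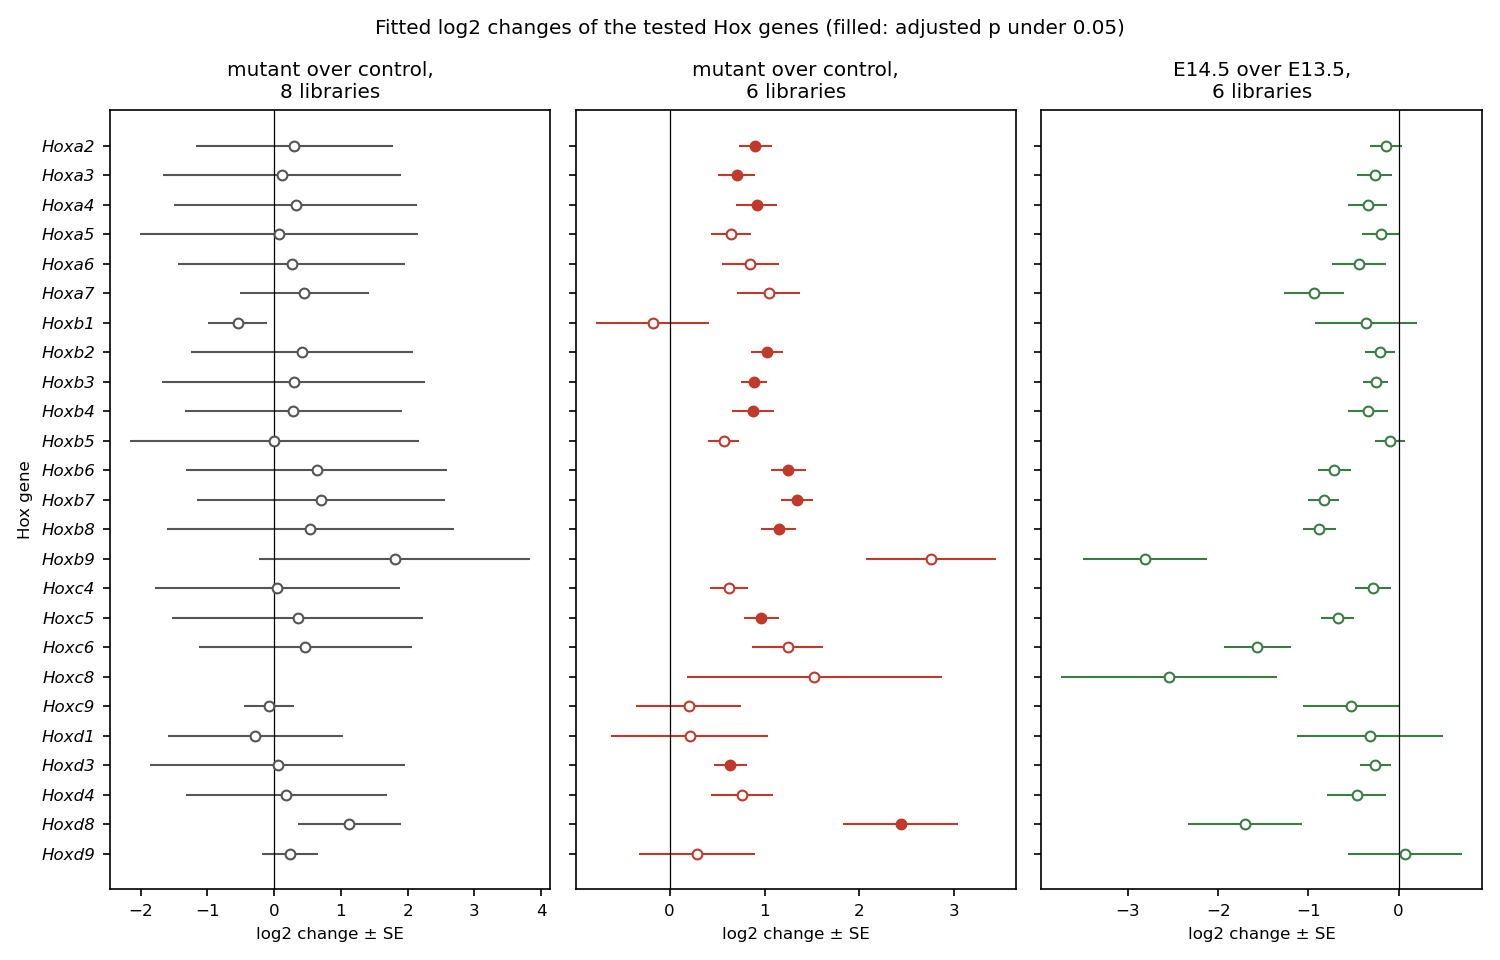
Log2 change with its standard error for the tested Hox genes (all but 1), for mutant over control in 8 libraries (left), mutant over control in 6 libraries (middle) and E14.5 over E13.5 in 6 libraries (right), with filled points at an adjusted p under 0.05. The left panel has no filled point and wide bars, the middle panel has 12 filled points above 0, and the right panel has none, with all the genes drawn below 0 except Hoxd9.

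Among the 24 Hox genes with more than 3 counts in each of the 6 Hox-rich libraries, Hoxb9 and Hoxd8 showed the widest spread, and Hoxc8, on 2 to 28 counts in those libraries, had the largest standard error (1.34). Hoxb9 (chr11:96271457-96276595), whose RNA is normally limited to the spinal cord, stood at 0.0452, 6.46 and 7.10 CPM in mutants 260-1, 195-3 and 303-2, and at 9.18, 4.98, 0.372, 0.0656 and 1.67 CPM in controls 260-2, 260-3, 195-2, 195-6 and 303-3. Its highest to lowest ratio among the 6 Hox-rich libraries was 24.7, against 1.81 for Hoxb5 and 2.25 for Hoxb3, and the E13.5 controls enclosed the mutants. The edgeR log2 change in 6 libraries was 2.75 (SE 0.69, 95% interval 0.97 to 4.54, adjusted p = 0.0699), which did not pass. Relative to Hoxb4 counts of the same library, Hoxb9 was at 0.592 and 1.01 in mutants 195-3 and 303-2, and at 1.61, 0.747, 0.0796 and 0.327 in controls 260-2, 260-3, 195-2 and 303-3. The Hoxb5 to Hoxb4 ratio stayed between 4.87 and 6.48 in the same libraries. Hoxd8 (chr2:74704615-74707933), with 6 to 45 counts per library, stood at 0.158, 0.451 and 1.28 CPM in the mutants, and at 0.652, 0.378, 0.124, 0.175 and 0.188 CPM in the controls. Its edgeR log2 change was 2.43 in 6 libraries (SE 0.61, adjusted p = 0.0356) and 1.13 in 8 (SE 0.77, adjusted p = 0.326). Hoxc6 followed the same order as Hoxb9 among the controls, at 0.0226, 2.69 and 2.41 CPM in the mutants and 4.34, 2.07, 0.847, 0.0219 and 1.32 CPM in the controls, and its change of 1.24 (SE 0.38) in 6 libraries did not pass. Hoxa9 was at 0 to 0.227 CPM in the mutants and 0 to 0.326 CPM in the controls and was not tested.

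Markers of other brain regions differed as well, forebrain genes in the same 2 mutants and midbrain genes in all 3 mutants. The 15 forebrain genes summed to 1742, 387.4 and 855.8 CPM in mutants 260-1, 195-3 and 303-2, and to 1517, 1440, 1433, 1711 and 1500 CPM in the controls. Tbr1, a factor of cortical projection neurons, stood at 107.3, 12.7 and 50.97 CPM in the mutants and at 109.6 to 141.9 CPM in the controls. Mutants 195-3 and 303-2, the 2 highest for Hox genes, were thus the 2 lowest for forebrain genes. Mutant 260-1 and control 195-6 were each the highest of their genotype. The 14 midbrain genes summed to 573.7, 665.9 and 601 CPM in the mutants, all above the controls (365.8 to 437.2 CPM). Over 8 libraries, 11 of 14 midbrain and 8 of 17 rhombomere 1, isthmus and cerebellum genes were called higher and 0 lower by edgeR. So were 5 of 20 caudal hindbrain genes (median log2 change 0.52), while 1 of 15 forebrain genes was called lower and 0 higher (-0.77). Of all tested genes, 10.9% were called higher and 9.74% lower over 8 libraries. In the 6 libraries, 5 of 15 forebrain genes were called lower and 0 higher (median log2 change -1.33), 10 of 14 midbrain genes higher and 0 lower (0.99), 12 of 17 rhombomere 1, isthmus and cerebellum genes higher and 0 lower (0.75), and 11 of 20 caudal hindbrain genes higher and 0 lower (0.81), each by the edgeR test. Set against the caudal hindbrain list of the same library, the Hox sum was 1.83 and 1.56 in mutants 195-3 and 303-2, and 1.93, 1.85, 1.53 and 1.71 in controls 260-2, 260-3, 195-2 and 303-3, so the genotypes overlapped on this ratio. Of the spinal cord and motor neuron list, edgeR called 3 of 16 tested genes higher and 0 lower in either fit. Its median log2 change was 0.24 in 6 libraries and -0.068 in 8. Against this list, the Hox sum was 2.85 and 2.74 in these mutants and 2.15, 1.75, 1.55 and 1.63 in these controls, with no overlap. Against the rhombomere 1 list it was 0.443 and 0.386 in the mutants and 0.386, 0.414, 0.316 and 0.347 in the controls. In mutant 260-1 and control 195-6 the ratio to the caudal hindbrain list was 0.0185 and 0.0484. The part of these regional levels in the higher Hox values was not tested.

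**Figure D5:**
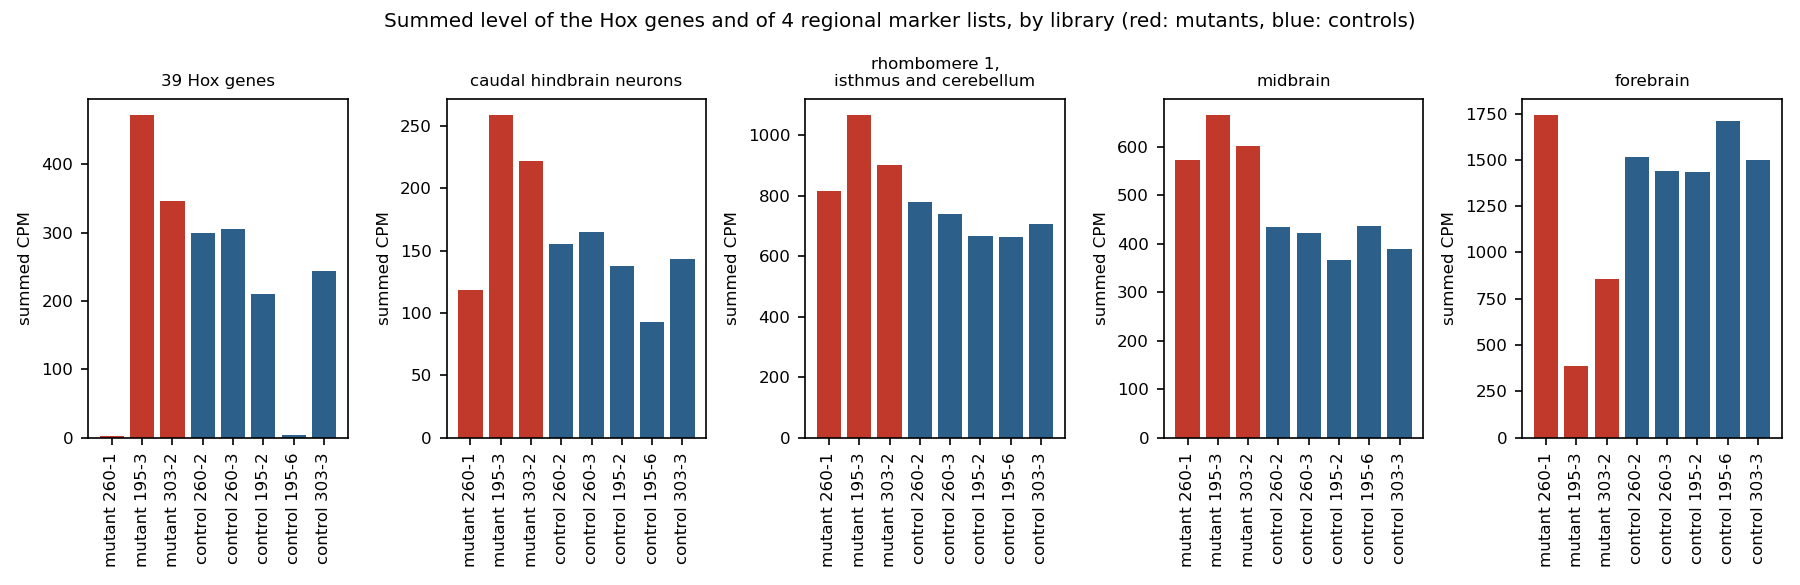
Summed CPM of the 39 Hox genes and of 4 regional marker lists in each library, mutants (red) left of controls (blue), each axis starting at 0. Mutants 195-3 and 303-2 are highest for Hox and caudal hindbrain genes and lowest for forebrain genes, and mutant 260-1 and control 195-6 are near 0 for Hox genes alone.

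Between stages, edgeR called no Hox gene at the filter used. Over 8 libraries, the edgeR test for E14.5 over E13.5 called 0 of 25 Hox genes, against 3.26% of all tested genes (2.24% higher and 1.01% lower), with 0 at an unadjusted p under 0.05 against 25.5% of all genes, and DESeq2 called 0. In the 6 libraries, where stage is the difference of controls 195-2 and 303-3 over controls 260-2 and 260-3, edgeR called 0 of 26, against 0.160% of all genes (0.120% higher and 0.0401% lower), 8 had an unadjusted p under 0.05, against 15.8%, and DESeq2 called 6, all lower (Hoxb6, Hoxb7, Hoxb8, Hoxb9, Hoxc5 and Hoxc6). Without the filter on low counts edgeR called 10. Over the whole table, DESeq2 called 547 genes higher and 188 lower, and edgeR without the filter called 958 higher and 599 lower. With the filter, the edgeR median log2 change of the 26 Hox genes was -0.40, against -0.0033 for all tested genes, and 25 of 26 were negative. Genes 1 to 4 had a median of -0.30, genes 5 to 8 one of -0.83 and the 3 tested genes of number 9 to 13 one of -0.53, with Hoxd9 at 0.07. Along the Hoxb cluster the values were -0.36 for Hoxb1, -0.21 for Hoxb2, -0.25 for Hoxb3, -0.34 for Hoxb4, -0.09 for Hoxb5, -0.71 for Hoxb6, -0.83 for Hoxb7, -0.88 for Hoxb8 and -2.81 for Hoxb9. The edgeR adjusted p was 0.0829 for Hoxb7, 0.0896 for Hoxb8 and 0.181 for Hoxb9. This comparison and the 6-library genotype comparison share controls 195-2 and 303-3, so their changes are not independent, and stage cannot be told apart from the 260 samples. A stage by genotype interaction over 8 libraries, which rests on mutant 260-1, the library of near-zero Hox level, as the only E13.5 mutant, was called by edgeR for 0 of 25 Hox genes, against 0.104% of all genes, and 11 of 25 had an unadjusted p under 0.05, against 9.34% of all genes.

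Genes that act upstream of Hox clusters or with Hox proteins were called in both directions, at shares to be read against 20.6% of all tested genes over 8 libraries and 11.3% over 6. Of the 9 Pbx, Meis and Pknox genes, 2 were called higher (Pbx2 and Pbx4) and 1 lower (Meis2) over 8 libraries, and 3 higher (Pbx2, Pbx3 and Meis1) and 1 lower over 6. Meis1, whose protein binds DNA with Hox proteins, stood at 30.8, 82.8 and 64.2 CPM in the mutants and at 54.8, 59.5, 52.9, 32.5 and 53.0 CPM in the controls, with both Hox-poor libraries lowest of their genotype. Of 16 upstream patterning genes, 10 were tested, of which 1 was higher and 2 lower over 8 libraries and 2 higher and 1 lower over 6. Cyp26b1, which degrades retinoic acid, stood at 40.9, 102.1 and 86.0 CPM in the mutants and at 60.8, 72.4, 60.3, 44.5 and 57.4 CPM in the controls. Its log2 change by edgeR was 0.68 in 6 libraries (adjusted p = 0.0106) and 0.32 in 8 (adjusted p = 0.502). Rarb, a retinoic acid receptor, was lower, at 4.02, 4.85 and 3.35 CPM in the mutants and 6.41 to 8.34 CPM in the controls, with log2 changes of -0.82 (adjusted p = 0.00881) in 8 and -0.96 (adjusted p = 0.0205) in 6 libraries. Cdx1, Cdx2 and Cdx4 had at most 1 count in any library. Of 22 Polycomb and Trithorax genes, 2 were higher and 4 lower over 8 libraries and 0 higher and 3 lower over 6, including Kmt2a, a Trithorax-type methyltransferase of active Hox genes, at -0.48 (adjusted p = 0.0101) and -0.67 (adjusted p = 0.00679).

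Promoter sequences from RefSeq (GRCm38.p6, windows of 300 bases) were held for 22 of the 39 genes and 3 are shown, for genes called higher that carry the core letters of a retinoic acid receptor site. The letters AGGTCA, on either strand, were found in 7 of the 22 genes (31.8%), against 16.3% of 32851 promoter windows. Here and for the letters below, Hox matches were counted per gene and all promoters per window, so the shares differ in unit. The letters TTTATG of a Cdx site were found in 5 (22.7%), against 11.9%, and the letters TGATNNAT of a Pbx and Hox site in 4 (18.2%), against 8.8%, searched the same way, and matches of different letters may overlap. Of the 12 genes called higher in 6 libraries, 6 had a promoter window and 3 of these, Hoxb4, Hoxd3 and Hoxd8, held an AGGTCA match. Of the 16 genes with a window that were not called, Hoxa5, Hoxc4, Hoxd4 and Hoxd10 held one. The 3 matches lie upstream of the annotated start, shown in capitals within 86 bases, 5′ to 3′ on the gene's strand (TGACCT where it lies on the other strand).
Hoxb4 (chr11:96318146-96318231, plus strand): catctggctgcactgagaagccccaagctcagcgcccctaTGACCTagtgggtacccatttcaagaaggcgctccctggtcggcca
Hoxd3 (chr2:74711792-74711877, plus strand): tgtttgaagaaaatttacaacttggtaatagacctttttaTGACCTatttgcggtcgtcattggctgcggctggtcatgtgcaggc
Hoxd8 (chr2:74704440-74704525, plus strand): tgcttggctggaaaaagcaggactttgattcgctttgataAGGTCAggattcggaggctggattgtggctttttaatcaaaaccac
The matches begin 81, 161 and 135 bases before the RefSeq start of Hoxb4, Hoxd3 and Hoxd8, which for Hoxd3 lies downstream of the GENCODE start given above. They describe the letters of these windows, and whether a receptor binds there was not measured.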

How the data were processed

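RNA of embryonic brain was purified on columns with DNase digestion and made into TruSeq RNA v2 libraries, a kit that does not mark strand, per the labels' protocols. Per the submitters' processing notes, edgeR 3.4.2, HTSeq 0.5.4p5 and TopHat2 2.0.9 were among the tools and the builds were GRCm38 and mm10. The deposited table holds expected counts per gene, not normalised by the authors, of which 66.0% to 68.9% per library are whole numbers. HTSeq writes whole numbers, so how these fractions arose is not known here. Values were rounded to whole numbers before testing.

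Analyses used R 4.3.3, edgeR 4.0.16 and limma 3.58.1, with DESeq2 1.42.0 as an alternative. Genes were kept by filterByExpr (minimum count 10), scaled by TMM and tested across all genes with the quasi-likelihood F test (robust), stage plus genotype, Benjamini-Hochberg adjusted p under 0.05, over 8 libraries and over 6. P-values measure the spread between these samples, which the labels give as separate samples. RPKM used exon lengths of GENCODE M21. On simulated counts, 100% of genes changed by 1 log2 unit were recovered over 8 libraries (17309 genes) and 88% over 6 (17385 genes), with 7 and 10 false calls. The simulation gave all genes the same spread, changed only genes above a set mean count and held no Hox-poor library. It therefore does not give the recovery of the Hox genes, whose median standard error over 8 libraries was 1.7. The named genes are, per cluster, the member of highest RPKM in each class of paralogue number, the genes called, or the 6 of smallest p, and from other lists up to 3 called genes. Other Hox genes were named after their values were seen. Members and lists were chosen with earlier results of these data known. Alternatives were other scalings, filters, DESeq2, no stage term, the title number as a block, E14.5 samples alone and each library left out. Single values of 1 Hox gene and of a few other genes are not reported here.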

Additional observations from a re-analysis of the deposited data

Results flagged for a closer look

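Among the 5 controls, control 195-6 lay far below the other 4 in Hox level, with a gap to the nearest of them above Dixon's critical value of 0.710 of the range. This library was known to be low in Hox RNA when the genes were chosen, so the values describe it, and the usual chance level of about 1 in 20 groups does not apply to them. The gap took 0.912 of the range for the summed Hox level on the log2 scale, 0.933 for Hoxa, 0.903 for Hoxb, 0.875 for Hoxc and 0.907 for Hoxd. For single genes on the log2 CPM scale it was 0.913 for Hoxa4, 0.957 for Hoxa5, 0.929 for Hoxb3, 0.862 for Hoxb8, 0.925 for Hoxc4, 0.888 for Hoxc5, 0.937 for Hoxd3, 0.869 for Hoxb7, 0.875 for Hoxb6 and 0.936 for Hoxb2. For Hoxa9 the sample that stood apart was control 260-2, the highest, with 13 counts and a gap of 0.812. In all, 16 of 20 groups of values passed, and since 15 of them rest on the same library they are not separate observations. The 3 mutants were too few for this test, and mutant 260-1 was lower still.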

How the results depend on the processing

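The 8-library genotype count of 0 of 25 held under RLE and upper quartile scaling, no filter, a minimum count of 30, DESeq2 and no stage term. It was 1 with the E14.5 samples alone (Hoxd8), 12 with 6 libraries and 0 to 1 with each library left out. The 6-library count of 12 was 12 under RLE, 10 under upper quartile scaling, 9 with a minimum count of 30 and 17 with DESeq2, and moved to 22 without a filter, 3 without the stage term, 6 with the E14.5 samples alone and 0 to 16 with each library left out. The 6-library stage count of 0 moved to 10 without a filter, 6 with DESeq2 and 0 to 6 with each library left out, the 6 arising without either mutant. Lone samples left in a group are assumed to vary like the others. Over all genes, the 6-library genotype fit called 1970, against 2006 under RLE, 2016 under upper quartile scaling and 2093 with a minimum count of 30. The calls were 2971 with DESeq2, 3801 without a filter, 462 without the stage term and 1036 with the E14.5 samples alone. The 6-library stage fit called 28, against 547 higher and 188 lower with DESeq2 and 958 higher and 599 lower without a filter.

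With each library left out, the 8-library log2 change ran from -0.37 to 1.59 for Hoxb2, -0.59 to 1.47 for Hoxb3, -0.24 to 1.85 for Hoxb6, -0.14 to 1.93 for Hoxb7, -0.38 to 1.74 for Hoxb8 and -0.49 to 1.56 for Hoxc5. In 6 libraries it ran from -0.25 to 0.57 for Hoxc9 and -0.55 to 0.86 for Hoxd9, and Hoxc9 was -0.082 without the stage term. The cause of these moves was not tested.

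With the title number as a replicate block in place of stage, the counts were 0 over 8 libraries and 14 over 6, which included all 12. Deviations of mutants and same-numbered controls from their group means correlated at 0.202 for 260, 0.0315 for 195 and 0.15 for 303 over 17357 genes. Mutants 260-1 and 303-2 correlated most with the controls of their own number, while mutant 195-3 correlated more with control 303-3 (0.233). Such mixed values do not settle whether the number pairs the samples. An interaction of stage and genotype, added after the data were seen and resting on 1 E13.5 mutant, called 0 of 25 Hox genes by edgeR, against 0.104% of all genes.

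Depth limits the genes of number 9 to 13 other than Hoxb9, as well as Hoxb1, Hoxc8 and Hoxd8, which rest on few counts per library. Summed Hox levels differed by less than 1 SD between scalings.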
